A study of Mus musculus with 8 samples.

Results

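The replication-dependent histone genes are the clustered genes that supply histones while DNA is being copied, and they were followed here across lung tumour nodules of mice treated with a BET bromodomain inhibitor, an immune checkpoint antibody or both. Members were all genes whose symbol starts with Hist1h, Hist2h, Hist3h or Hist4h. This gave 70 of the 52459 genes listed, of which 57 had enough reads to be tested among 14085 tested genes. By histone type the 70 comprised 6 H1, 20 H2A, 19 H2B, 12 H3 and 13 H4 genes. By cluster, 56 belonged to Hist1 on chromosome 13, 10 to Hist2 on chromosome 3, 3 to Hist3 on chromosome 11 and 1 to Hist4 on chromosome 6 (GENCODE annotation of GRCm38). The 13 members not tested held 249 reads in all 8 libraries together, and they included all 3 Hist3 genes. Hist1h2aa, Hist2h2aa1 and Hist2h3c1 had no read in any library. Of their 50-base stretches, 97.7%, 10.6% and 0.0% in turn are unique among annotated transcripts. Reads of Hist2h2aa1 and Hist2h3c1 may thus have been assigned elsewhere or left out, which was not tested.

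All 8 libraries came from tumour nodules of KrasTrp53 mice, a genetically engineered model of lung cancer on a mixed strain background, so that the tumour alleles were shared by controls and treated mice. The 4 groups of 2 libraries each were vehicle, JQ1 alone, anti-PD-1 antibody alone, and anti-PD-1 together with JQ1 (the combination). JQ1 keeps the BET proteins, readers of acetylated histone tails, from binding chromatin. Anti-PD-1 blocks an inhibitory receptor of T cells. How the tumour alleles are switched on, the doses, the treatment times and the ages are stated by none of the sources used here. Nodules are mixtures of tumour, stromal, vascular and immune cells. No label says that the 2 libraries of a group came from different mice, so the p-values measure only the spread between these libraries, which may be technical. In bulk tissue, fewer cells in S phase and less histone RNA per cell cannot be told apart.

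Histone mRNAs of this class accumulate in S phase, when new DNA must be packaged, and are degraded when replication ends. Their genes are transcribed at a dedicated nuclear body under NPAT, a substrate of cyclin E-CDK2, and most of the mRNAs end in a conserved stem-loop bound by SLBP instead of a poly(A) tail. H2A, H2B, H3 and H4 form the core of the nucleosome, H1 sits on the linker DNA, and some of the genes can also give polyadenylated transcripts, above all in cells that have stopped dividing. The labels name the RNA as polyadenylated, while the library kit captured coding regions with sequence-specific probes.

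The stem-loop is shown because it defines the class and separates H4 from the other types. A 16-base stem-loop with 6 paired bases on each side was found in the annotated transcripts of 46 of the 70 members. Capitals mark the paired stem and lower case the 4-base loop, in DNA letters, 5′ to 3′.
H1, H2A, H2B and H3, 26 members: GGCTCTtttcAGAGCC
H1, H2B and H3, 6 members: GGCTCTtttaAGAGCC
H2A, Hist2h2ac only: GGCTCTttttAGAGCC
H4, 7 members: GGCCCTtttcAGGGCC
H4, 2 members: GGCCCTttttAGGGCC
H4, 2 members: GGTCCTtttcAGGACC
None of the 12 H4 stem-loops had the stem found in the other types. The form GGCTCT with its partner AGAGCC was found in all 34 stem-loops of the H1, H2A, H2B and H3 members, with another loop in Hist1h3g, and Hist1h4a carried the GGCCCT stem with another loop.

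Promoters are shown as a description of the members, of which 40 of the 57 tested fell with JQ1, as described below. RefSeq sequence on GRCm38.p6 was available for 62 of the 70 members, in 63 windows from 250 bases before to 50 bases after the start site. Searched on both strands, CCAAT was found in 51 of 51 windows of H1, H2A, H2B and H3 genes but in only 3 of 12 H4 windows (Hist1h4a, Hist1h4c and Hist1h4d), against 37.4% of all 32851 promoter windows of the table. TATAAA was found in 55.6% of the members' windows against 13.6% of all windows. The octamer ATTTGCAT, the letters read by Oct-1 (Pou2f1), was in 7 H2A and 7 H2B windows and in no other type, 22.2% of the members' windows against 1.7% of all. GGGCGG, a GC box, was in 38.1% of the members' windows against 35.7% of all, and in 9 of 12 H4 windows. Windows of neighbouring genes transcribed away from each other can overlap, so a single motif copy can count for both genes. The octamer between Hist1h2ae and Hist1h2bg was counted for both. The counts are therefore of windows and not of separate motif copies. The sequences below stop before the start site, with these motifs in capitals on either strand. They were chosen as a divergent H2A and H2B pair, an H2B gene with 1 of the smallest adjusted p-values, an H4 gene without CCAAT, and the H1 gene with the most positive value.
Hist1h2ae and Hist1h2bg, between their start sites, chr13:23571221-23571395, minus strand: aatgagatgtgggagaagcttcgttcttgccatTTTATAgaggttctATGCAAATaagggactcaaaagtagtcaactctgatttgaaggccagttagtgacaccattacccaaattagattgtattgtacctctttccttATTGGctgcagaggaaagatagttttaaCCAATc
Hist1h2bm, chr13:21721809-21722043, plus strand: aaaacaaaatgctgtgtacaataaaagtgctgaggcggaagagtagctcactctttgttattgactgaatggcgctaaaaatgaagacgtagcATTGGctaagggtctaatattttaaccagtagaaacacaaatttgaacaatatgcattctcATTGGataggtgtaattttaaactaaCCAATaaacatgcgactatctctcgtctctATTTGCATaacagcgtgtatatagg
Hist1h4h, chr13:23530794-23531043, plus strand: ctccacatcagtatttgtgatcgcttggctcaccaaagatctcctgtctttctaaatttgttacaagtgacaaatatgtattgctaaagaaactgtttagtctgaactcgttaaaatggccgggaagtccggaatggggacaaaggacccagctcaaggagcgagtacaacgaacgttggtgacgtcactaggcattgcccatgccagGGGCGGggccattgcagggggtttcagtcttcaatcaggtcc
Hist1h1c, chr13:23738557-23738806, plus strand: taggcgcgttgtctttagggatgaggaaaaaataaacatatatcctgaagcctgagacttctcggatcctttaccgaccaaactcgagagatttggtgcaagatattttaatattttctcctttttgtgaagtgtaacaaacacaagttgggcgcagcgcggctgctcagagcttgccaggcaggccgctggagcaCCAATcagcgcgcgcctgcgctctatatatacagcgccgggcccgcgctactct
The first stretch, which lies between 2 genes transcribed away from each other, holds TATAAA, the octamer and a pair of CCAAT motifs. Hist1h2bm has 3 CCAAT motifs and an octamer, Hist1h4h a single GC box and Hist1h1c a single CCAAT. A match is a stretch of letters and not a measured binding site. The median log2 fold change of tested members with JQ1, over both backgrounds as described below, was -1.65 with CCAAT and -1.78 without. It was -1.8 with TATAAA and -1.43 without, -1.75 with the octamer and -1.65 without, and -1.51 with GGGCGG and -1.75 without. The 8 tested members without CCAAT were all H4 genes. Differences by motif were not tested.

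Read depth differed between libraries and bears on all that follows. Totals ran from 2719816 reads in combination replicate 1 to 15224108 in vehicle replicate 2, and 55 to 61 members had at least 10 reads in each of the 6 vehicle, JQ1 and anti-PD-1 libraries, against 24 and 42 in combination replicates 1 and 2. The share of all reads on ribosomal RNA genes was 23.4% ± 1.38 (SD, n = 2) with vehicle, 32.1% ± 5.13 with JQ1, 24.4% ± 0.502 with anti-PD-1 and 49.9% ± 4.67 with the combination. This share moved with JQ1, as the histone genes did. Levels are given in read counts divided by library totals scaled with TMM factors (CPM), and log2 fold changes and adjusted p-values come from the quasi-likelihood test of edgeR, adjusted by Benjamini-Hochberg over all tested genes, with calls at 0.05.

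Summed over all 70 members, histone RNA was lowest in the libraries that had received JQ1. The sum was 2700 and 3054 CPM in the vehicle libraries, 1611 and 1078 CPM with JQ1, 2412 and 2461 CPM with anti-PD-1, and 589.4 and 873.8 CPM with the combination. The 4 libraries with JQ1 lay below the 4 without, and both combination libraries lay below both JQ1 libraries. Group means were 2877 ± 250.7 CPM (SD, n = 2), 1345 ± 376.7, 2436 ± 34.6 and 731.6 ± 201 in the same order. As ratios to the vehicle mean these were 0.467 with JQ1, 0.847 with anti-PD-1 and 0.254 with the combination, and the ratio of combination to anti-PD-1 was 0.300. Since the totals include ribosomal reads, the histone share was also taken of protein-coding reads alone: 0.430% ± 0.0604 with vehicle, 0.237% ± 0.0692 with JQ1, 0.359% ± 0.00941 with anti-PD-1 and 0.124% ± 0.0216 with the combination. The order of the groups was the same on that scale.

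**Figure D1:**
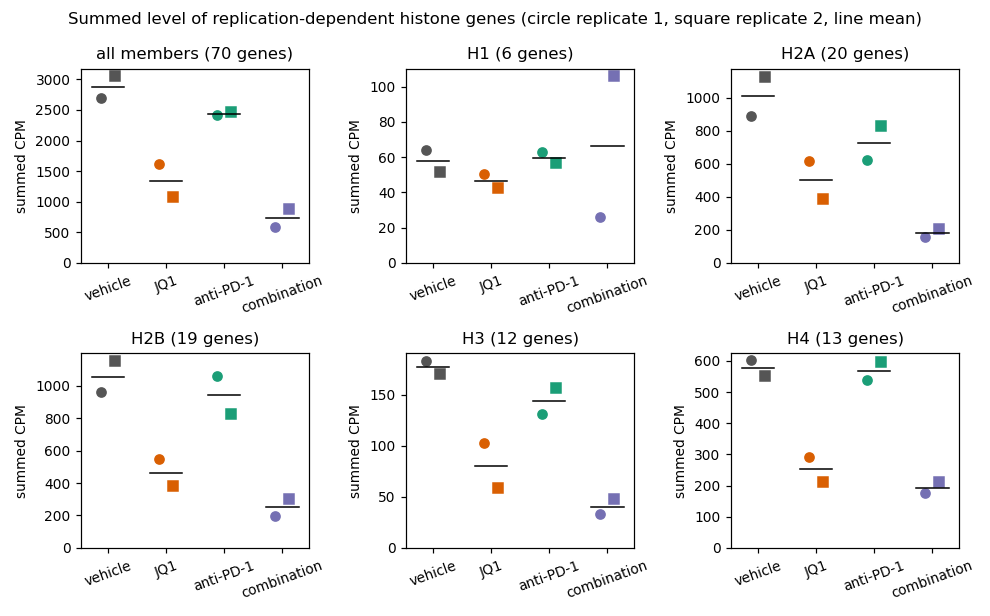
Summed level in CPM (y axis) of all 70 members and of each histone type by treatment group (x axis); circles are replicate 1, squares replicate 2 and lines the group mean. The 4 libraries given JQ1 lie below the 4 others in the sum of all members and in H2A, H2B, H3 and H4, while H1 in combination replicate 2, at 106 CPM, is the highest H1 value of all.

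Averaged over both backgrounds (JQ1 and combination against vehicle and anti-PD-1), 40 of 57 tested members fell and none rose, where 4.05% of all tested genes fell. The median log2 fold change of the 57 was -1.65, against 0.06 over all genes, and 55 of 57 values were negative. By type, 1 of 5 H1, 10 of 14 H2A, 13 of 15 H2B, 6 of 11 H3 and 10 of 12 H4 genes fell. By cluster, 38 of 48 Hist1 genes and 2 of 8 Hist2 genes fell, and the Hist4 gene did not pass the test. Every library with JQ1 was below every library without it for 34 of the 57 members, a pattern shown by 9.35% of all tested genes. That count was 12 of 15 for H2B and 10 of 12 for H4, against 6 of 14 for H2A, 5 of 11 for H3 and 1 of 5 for H1. The number of calls depended on single libraries: it was 6 without vehicle replicate 2, 18 without vehicle replicate 1, 19 without anti-PD-1 replicate 1 and 23 without anti-PD-1 replicate 2. Without the shallow combination replicate 1 it was 39. With the ribosomal share added as a covariate no member passed the test. In that fit 55 of 57 log2 fold changes were negative, with a median of -3.43. The share was 22.4% to 24.7% in the libraries without JQ1 and 28.5% to 53.2% in those with it. The covariate fit can therefore not separate the share from JQ1. With the ribosomal RNA genes removed before scaling, 55 of 57 log2 fold changes were negative. That removal alters the scaling but does not adjust for the share. The part of the ribosomal share in the result was not tested.

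**Figure D2:**
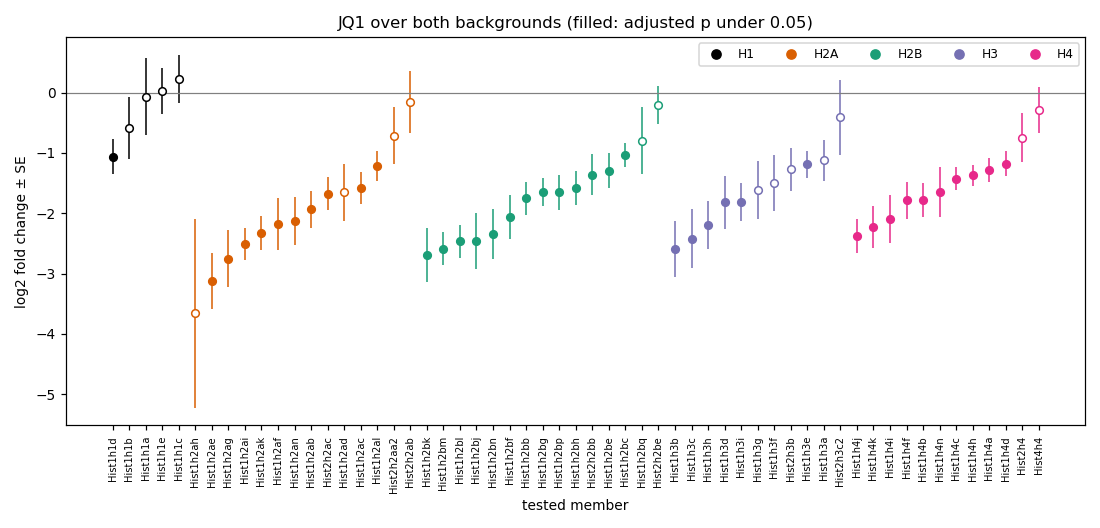
Log2 fold change for JQ1 over both backgrounds (y axis, bars are the standard error of the fit) of each of the 57 tested members (x axis), grouped by type; filled points passed the adjusted p of 0.05. The 40 filled points all lie below zero, and the open points include 4 of the 5 H1 genes; Hist1h2ah, the lowest point, had no read in the combination.

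H4 pairs with H3 at the centre of the nucleosome, and its genes gave some of the smallest adjusted p-values. Hist1h4h was measured at 141 and 123 CPM with vehicle, 60.6 and 56.3 with JQ1, 122 and 136 with anti-PD-1, and 42.0 and 44.9 with the combination. The libraries with and without JQ1 did not overlap, and the gene fell over both backgrounds with a log2 fold change of -1.37 ± 0.17 (SE) and an adjusted p of 0.00896. Hist1h4c stood at 101 and 86.9 CPM with vehicle, 36.0 and 27.4 with JQ1, 86.5 and 99.8 with anti-PD-1, and 35.7 and 40.5 with the combination. In this gene the combination and JQ1 libraries overlapped, and the fall over both backgrounds was -1.43 ± 0.19 on the log2 scale (adjusted p = 0.00943). Hist1h4d also had every library with JQ1 below every one without, at 134 and 116, 72.2 and 46.9, 118 and 151, and 52.5 and 57.8 CPM in the same order (log2 fold change -1.18 ± 0.20, adjusted p = 0.0184). All 3 genes encode the same protein. The 2 H4 genes outside the Hist1 cluster did not pass the test. Hist2h4 had 19.2 and 11.8 CPM with vehicle, 12.9 and 7.83 with JQ1, 13.3 and 28.8 with anti-PD-1 and 4.62 and 16.6 with the combination (-0.75 ± 0.41, adjusted p = 0.233). Hist4h4 had 10.5 and 6.82, 6.38 and 5.83, 4.53 and 13.97, and 5.88 and 11.03 CPM (-0.29 ± 0.38, adjusted p = 0.620). In both genes the treated and untreated libraries overlapped. Summed over 13 genes, H4 was 603 and 553 CPM with vehicle, 292 and 212 with JQ1, 538 and 597 with anti-PD-1, and 176 and 211 with the combination, so that the mean with JQ1 was 0.436 and with the combination 0.335 of vehicle.

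H3 genes held the fewest reads of the 4 core types, with a sum of 183 and 170 CPM with vehicle, 103 and 58.1 with JQ1, 131 and 156 with anti-PD-1, and 33.2 and 47.4 with the combination. Of the 11 tested, 6 fell over both backgrounds and 5 did not pass. Hist1h3e, with 52.0 and 38.4 CPM with vehicle, 22.0 and 16.6 with JQ1, 34.8 and 46.2 with anti-PD-1, and 15.97 and 20.1 with the combination, fell by 1.19 ± 0.22 on the log2 scale (adjusted p = 0.0217). Its groups with and without JQ1 did not overlap. Hist1h3b had 13.04 and 20.9 CPM with vehicle, 9.73 and 5.48 with JQ1, 16.9 and 8.44 with anti-PD-1, and 0 and 1.15 with the combination. It fell over both backgrounds (-2.59 ± 0.47, adjusted p = 0.0208), but the combination side rests on 0 and 7 reads. Against vehicle, the reads of the combination gave a ratio of 21.2 in favour of vehicle, with an exact 95% interval for counting error only of 10.2 to 52.9. Hist1h3f (42.9 and 27.2 CPM with vehicle, 16.4 and 12.4 with JQ1, 19.7 and 36.5 with anti-PD-1, 1.68 and 13.8 with the combination) had a log2 fold change of -1.503 ± 0.47 and missed the threshold at an adjusted p of 0.0737. Hist2h3b, at 20.6 and 17.0, 12.6 and 4.70, 12.4 and 21.7, and 7.98 and 5.10 CPM, missed it as well (-1.27 ± 0.36, adjusted p = 0.0539). Hist2h3c2 stayed under 1.7 CPM in every library (-0.41 ± 0.63, adjusted p = 0.671).

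H2B had 13 of 15 tested genes called lower over both backgrounds. Its sum was 960 and 1152 CPM with vehicle, 551 and 379 with JQ1, 1060 and 825 with anti-PD-1, and 196 and 302 with the combination. Hist1h2be, with the highest mean CPM of the type, was at 231 and 212 CPM with vehicle, 95.9 and 99.0 with JQ1, 219 and 232 with anti-PD-1, and 41.6 and 127.6 with the combination. It fell over both backgrounds (-1.29 ± 0.29, adjusted p = 0.0340). Its annotated span overlaps Hist1h1e on the same strand, so reads from the 2 genes may be hard to tell apart. Hist1h2bc was at 162 and 174, 105 and 83.4, 168 and 138, and 79.0 and 51.0 CPM, a fall of 1.04 ± 0.20 on the log2 scale (adjusted p = 0.0238). Hist1h2bb was at 99.2 and 136, 60.1 and 34.7, 123 and 78.9, and 16.4 and 27.0 CPM, with a larger log2 fold change of -1.75 ± 0.27 (adjusted p = 0.0138). Both kept the libraries with JQ1 below those without. Hist1h2bk, among the 5 lowest log2 fold changes, had 19.1 and 34.9 CPM with vehicle, 6.59 and 4.26 with JQ1, 27.4 and 14.9 with anti-PD-1, and 0.420 and 3.79 with the combination (-2.70 ± 0.45, adjusted p = 0.0184). In the Hist2 cluster, Hist2h2bb fell (-1.36 ± 0.34, adjusted p = 0.0433), from 41.7 and 57.1 CPM with vehicle and 38.1 and 53.5 with anti-PD-1 to 34.5 and 17.6 with JQ1 and 6.30 and 18.9 with the combination. Hist2h2be did not: it had 4.96 and 9.34 CPM with vehicle, 9.11 and 10.8 with JQ1, 9.83 and 5.53 with anti-PD-1 and 4.20 and 4.12 with the combination (-0.21 ± 0.32, adjusted p = 0.674).

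H2A showed the lowest relative level with the combination. Its sum was 890 and 1127 CPM with vehicle, 615 and 387 with JQ1, 619.5 and 826 with anti-PD-1, and 158 and 207 with the combination. Hist1h2al alone took 43.0% to 58.0% of the summed H2A CPM in the 6 vehicle, JQ1 and anti-PD-1 libraries and 72.9% and 71.3% in the combination. It is annotated as a processed pseudogene (chr13:51202727-51203065, minus strand), away from the main Hist1 cluster, and only 32.4% of its 50-base stretches are unique among annotated transcripts, with 65.5% shared with the gene model Gm20634. Reads assigned to it may therefore come from other H2A genes. It had 467 and 600 CPM with vehicle, 341 and 215 with JQ1, 266 and 479 with anti-PD-1, and 115 and 148 with the combination (-1.22 ± 0.25, adjusted p = 0.0259). Without it the H2A sum was 423 and 526, 274 and 172, 353 and 347, and 42.9 and 59.4 CPM, so that the mean with the combination was 0.108 of vehicle. Hist2h2ac, the next most abundant H2A gene per length, was at 186 and 266 CPM with vehicle, 145 and 84.9 with JQ1, 93.6 and 190 with anti-PD-1 and 24.8 and 29.5 with the combination (-1.67 ± 0.28, adjusted p = 0.0176). Hist1h2ak was at 85.0 and 77.1, 43.2 and 21.4, 96.4 and 55.9, and 7.56 and 7.57 CPM (-2.33 ± 0.28, adjusted p = 0.00896). Hist2h2ac and Hist1h2ak encode near-identical canonical H2A. The lowest H2A fold changes belong to genes that the combination libraries scarcely contain. Hist1h2ae had 7.25 and 7.39 CPM with vehicle, 3.56 and 2.52 with JQ1, 4.602 and 3.47 with anti-PD-1, and 0 and 0.165 with the combination, where it had 1 read in all (-3.13 ± 0.46, adjusted p = 0.0114). Hist1h2ag was at 7.32 and 8.54, 4.81 and 3.39, 7.39 and 3.84, and 0 and 0.329 CPM, with 2 reads in the combination (-2.75 ± 0.47, adjusted p = 0.0176). The read ratio of vehicle to combination was 62.0 for Hist1h2ae (exact 95% interval 11.01 to 2458, counting error only) and 33.9 for Hist1h2ag (9.28 to 281). Hist1h2ah had 17, 19, 12, 11, 47 and 1 reads in the vehicle, JQ1 and anti-PD-1 libraries in turn and none with the combination, and it did not pass the test (adjusted p = 0.149). Taking 3 reads over the group as the floor, the ratio of vehicle to combination was 3.32. The exact 95% lower limit of that ratio, for counting error only and with no floor, was 2.56. Hist2h2aa2 (-0.71 ± 0.47) and Hist2h2ab (-0.17 ± 0.51) had under 3.3 CPM in every library and did not pass.

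H1, the linker histone, had 1 call among 5 tested genes, and its combination libraries differed from each other. Its sum was 64.1 and 51.7 CPM with vehicle, 50.4 and 42.7 with JQ1, 63.0 and 56.5 with anti-PD-1, and 26.1 and 106.2 with the combination, so the 2 combination libraries lay on either side of all others. Both JQ1 libraries and combination replicate 1 were below all 4 libraries without JQ1, as in the core types, and combination replicate 2 alone was above them. H1 was not tested against the core types. H1 made up between 1.69% and 3.96% of the histone reads in the 6 other libraries and 4.42% and 12.15% with the combination. The values in combination replicate 2 came mainly from Hist1h1c and Hist1h1e. Hist1h1c had 23.9 and 15.9 CPM with vehicle, 13.4 and 15.1 with JQ1, 18.8 and 20.9 with anti-PD-1, and 13.02 and 61.4 with the combination (0.23 ± 0.40 over both backgrounds, adjusted p = 0.714). Hist1h1e had 21.3 and 15.9, 18.001 and 18.5, 22.9 and 19.9, and 7.56 and 35.9 CPM (0.02 ± 0.38, adjusted p = 0.972). With combination replicate 1 left out, Hist1h1c was called higher in the combination than in vehicle, with a log2 fold change of 1.62 ± 0.34 and an adjusted p of 0.0283, the single remaining library being assumed to vary like the other groups. Hist1h1d was the H1 gene that fell: 15.2 and 14.8 CPM with vehicle, 12.4 and 6.87 with JQ1, 17.5 and 13.5 with anti-PD-1, and 4.20 and 6.58 with the combination (-1.06 ± 0.28, adjusted p = 0.0469). That call was lost with upper-quartile factors (adjusted p = 0.0533) and without either vehicle library (0.153 and 0.144). Hist1h1a was under 3 CPM everywhere, with 2.93 CPM in JQ1 replicate 1 its highest value (-0.07 ± 0.64, adjusted p = 0.951).

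**Figure D3:**
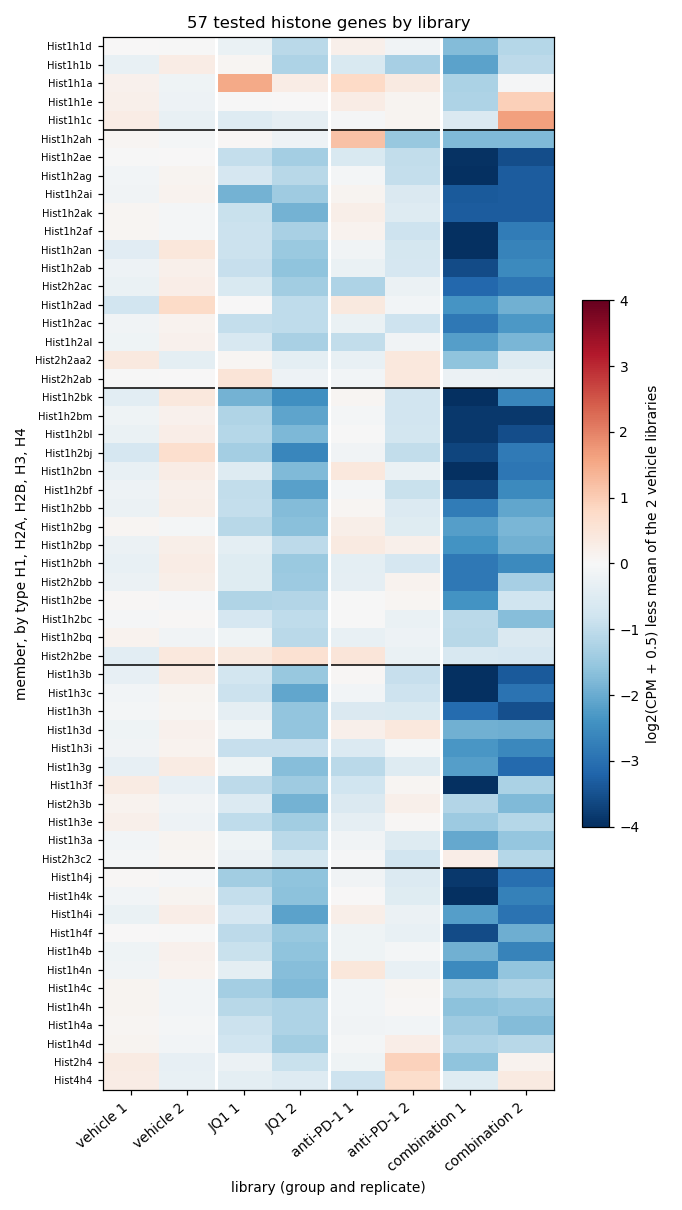
Level of each of the 57 tested members (rows, by type and then by log2 fold change) in each library (columns), as log2(CPM + 0.5) after subtracting the vehicle mean of the same gene; blue is lower and red higher, with the scale ending at 4. Blue fills most of the combination columns, and the red cells at Hist1h1c and Hist1h1e are in combination replicate 2, at 61.4 and 35.9 CPM.

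JQ1 alone was set against vehicle. No member passed the test, nor did any other gene (0% of 14085). At an unadjusted p under 0.05, 31 of 57 members were lower and none higher, where 4.52% of all genes were lower. DESeq2 called 9 members lower and limma voom none. Without a filter on low counts, with 26426 genes tested, edgeR called 16 lower. For these and all other alternative settings, left-out libraries included, the share of all genes called is not given. Such counts can therefore not be set against that share. The median log2 fold change was -1.06, against 0.07 over all genes, and 54 of 57 were negative. Both JQ1 libraries lay below both vehicle libraries for 47 of 57 members, against 23% of all genes. The largest single difference among the members named here was in Hist1h2bk, at -2.32 ± 0.59 (adjusted p = 0.443), and the smallest adjusted p was 0.254, for Hist1h4c (-1.57 ± 0.27).

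Anti-PD-1 alone was set against vehicle. No member and no gene passed the edgeR test (0% called), no member had an unadjusted p under 0.05, where 0.788% of genes were lower at that level, and neither DESeq2 nor limma voom called a member. The median log2 fold change of the members was -0.21, and 42 of 57 were negative. Averaged over both backgrounds, the antibody gave no call among the members, where 0.0142% of all genes were called. At an unadjusted p under 0.05, 29 members were lower and none higher, where 5.27% of genes were lower, and DESeq2 called 11, limma voom none and edgeR without a filter on low counts 21. The median was -0.74.

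The combination was set against each of the other groups. Against vehicle, 36 of 57 members fell and none rose, where 2.36% of genes fell. The median was -2.44 (-2.41 with Hist1h2ah at the floor of 3 reads). None of 5 H1, 10 of 14 H2A, 11 of 15 H2B, 6 of 11 H3 and 9 of 12 H4 genes fell. The calls numbered 7 without vehicle replicate 1, 2 without vehicle replicate 2 and 5 without combination replicate 2. Without combination replicate 1 there were 32 lower calls and 1 higher, Hist1h1c. Against anti-PD-1, where JQ1 is what was added, 34 of 57 fell, where 2.08% of genes fell, with a median of -2.28. All 14 H2A and all 15 H2B genes had both combination libraries below both anti-PD-1 libraries, and over the 57 members this held for 51, against 26.8% of all genes. This count of calls was 14 and 8 without vehicle replicate 1 or 2, 0 and 5 without anti-PD-1 replicate 1 or 2, and 5 without combination replicate 2. Without combination replicate 1 there were 27 lower calls and 1 higher. Limma voom called 21, and a fit on the 4 libraries alone called 8. Against JQ1, where the antibody is what was added, no member passed, where 0.0213% of all genes did. At an unadjusted p under 0.05, 32 members were lower and 1 higher, where 7.3% of genes were lower, DESeq2 called 18 and limma voom none. Without a filter on low counts edgeR called 25 lower and 1 higher, Hist1h1c. The median was -1.36, and both combination libraries were below both JQ1 libraries for 42 members, against 21.3% of all genes. In H4 the median of this contrast was -0.85, and in H2A -2.04.

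The difference with JQ1 can be read in 2 pairs of groups that share no library, without the antibody (JQ1 against vehicle) and with it (combination against anti-PD-1). The log2 fold change was negative in both for 52 of 57 members and more negative with the antibody for 50. The share of all tested genes with these patterns is not given here, so the counts cannot be set against it. In combination replicates 1 and 2, 33 and 15 of the 57 had fewer than 10 reads, so many values with the antibody rest on few reads. Across the 57 members the 2 sets of values had a Spearman rho of 0.522 and a Pearson r of 0.338, as a description, since members share libraries and near-identical sequence. For Hist1h4c the 2 values were -1.57 and -1.29, for Hist1h4h -1.18 and -1.57, for Hist1h2bb -1.31 and -2.20, and for Hist1h2ak -1.33 and -3.33. The test of whether the 2 differ, the interaction, called no member and no gene (0%). The smallest adjusted p among members was 0.745, 17 members had an unadjusted p under 0.05 on the lower side, where 3.57% of genes did, and neither DESeq2 nor limma voom called any. Without a filter on low counts 6 members were called on the lower side.

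**Figure D4:**
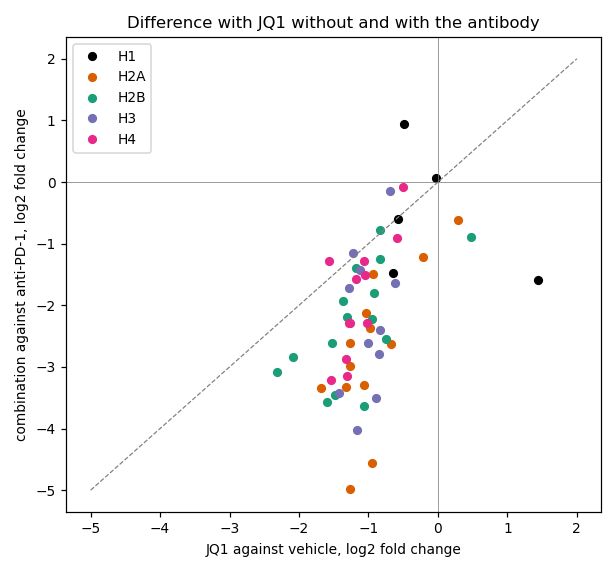
Log2 fold change of JQ1 against vehicle (x axis) and of combination against anti-PD-1 (y axis) for 56 tested members coloured by histone type, without Hist1h2ah, which had no read in the combination; the dashed line marks equal values. Most points lie at the lower left and below the line, and Hist1h1c, at -0.48 and 0.94, lies above the line.

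Neighbouring genes that are transcribed away from each other were compared because they share the stretch between their start sites. Of 15 such pairs with start sites within 1000 bases of each other, 14 joined an H2A to an H2B gene. In 10 pairs both genes were tested. The pairs with the closest log2 fold changes over both backgrounds were picked for that likeness. They were Hist1h2bl and Hist1h2ai, 279 bases apart, with -2.47 and -2.51, and Hist1h2ak and Hist1h2bn, 296 bases apart, with -2.33 and -2.35. The pair whose promoter is shown above, Hist1h2ae and Hist1h2bg, had -3.13 and -1.65. In the Hist2 cluster the values parted: Hist2h2ac fell (-1.67) while Hist2h2be, whose start lies 239 bases away, had -0.21 and did not pass. The remaining tested pairs are not listed here, and pairs were not compared with unpaired genes.

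Sequence identity limits what can be said of single members. Of the 70, 34 had fewer than 50% of their 50-base stretches unique among annotated transcripts; this held for 14 of 20 H2A, 8 of 19 H2B, 8 of 12 H3, 4 of 13 H4 and no H1 gene. Over the 57 tested members the unique share and the log2 fold change for JQ1 over both backgrounds had a Spearman rho of 0.480 and a Pearson r of 0.509, as a description: members with more unique sequence had less negative values. How the counting treated reads that fit several genes, and whether it used strand, is stated by no source used here, and many H2A genes have a gene model on the opposite strand. Sums over a type do not depend on how counted reads were split within it. They can depend on reads shared outside it and on shared reads left out of the count. Hist1h1e shares 23.8% of its 50-base stretches with the H2B gene Hist1h2be, and Gm20634, which is no member, shares 100% of those of Hist2h2aa2 and 79.7% of those of Hist2h3b. The annotated 3′ end was a further difference among members, split at a limit chosen after the values were seen. In 16 tested members whose transcript runs over 300 bases past the stem-loop the median was -1.24 and 10 fell, in 22 with a shorter stretch it was -1.77 and 18 fell, and in 19 with no stem-loop in the annotated transcript it was -1.81 and 12 fell. Among all tested genes 4.05% fell. The 16 included Hist1h1c, Hist1h1d and Hist1h1e and the 22 no H1 gene, so this split is mixed with histone type. The unique share is mixed with type as well, since no H1 gene was under 50%. These parts were not tested.

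Other genes of the histone pathway were read from lists set by function. Of 17 tested genes that make, cut or deliver histones or their mRNAs, none passed for JQ1 over both backgrounds, with a median of -0.12. Slbp, which binds the stem-loop, was at 11.1 and 11.9 CPM with vehicle, 14.6 and 13.1 with JQ1, 13.7 and 10.97 with anti-PD-1, and 12.6 and 14.2 with the combination (0.20, adjusted p = 0.565). Npat, the coactivator of the clusters, was at 6.71 and 5.499, 8.79 and 14.4, 8.58 and 6.09, and 9.24 and 15.8 CPM (0.86, adjusted p = 0.0832). The 4 most abundant of the list, Pou2f1 (-0.12), Asf1a (-0.38), Hat1 (-0.75, adjusted p = 0.0666) and Cpsf3 (0.08), did not pass either. Of 9 genes that drive entry into S phase none passed, with a median of -0.76. Among all tested genes 4.05% fell over both backgrounds, and at that share lists this short can hold no call. E2f3 had -1.05, Cdk2 -0.76, Cdc25a -0.21 and E2f2 -0.01.

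DNA replication genes, which act in the same phase of the cell cycle as these histones, were read beside them. Of 22 tested, 1 fell over both backgrounds, Mcm2 of the replicative helicase (-1.15, adjusted p = 0.0433). That is near the share of all tested genes that fell, 4.05%. None of the 22 rose, and their median was -0.58. Their sum was 235 and 274 CPM with vehicle, 346 and 191 with JQ1, 322 and 183 with anti-PD-1, and 120 and 95.1 with the combination. With JQ1 alone it was thus 1.05 of the vehicle mean, where the histone sum was 0.467, and with the combination 0.423, where the histone sum was 0.254. The histone sum divided by the replication sum was 11.5 and 11.1 with vehicle, 4.65 and 5.65 with JQ1, 7.49 and 13.4 with anti-PD-1, and 4.91 and 9.19 with the combination. Both JQ1 libraries and combination replicate 1 lay below the other 5 on this ratio. The 4 most abundant members of the list were Mcm4 (-1.09, adjusted p = 0.0722), Rrm1 (-0.55), Mcm2 and Mcm7 (0.08). Of 6 proliferation genes, the mitotic kinase gene Plk1 fell (-2.34, adjusted p = 0.0220), while Top2a (-1.47, adjusted p = 0.0685), Mki67 (-0.63) and Cdk1 (-0.71) did not pass.

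**Figure D5:**
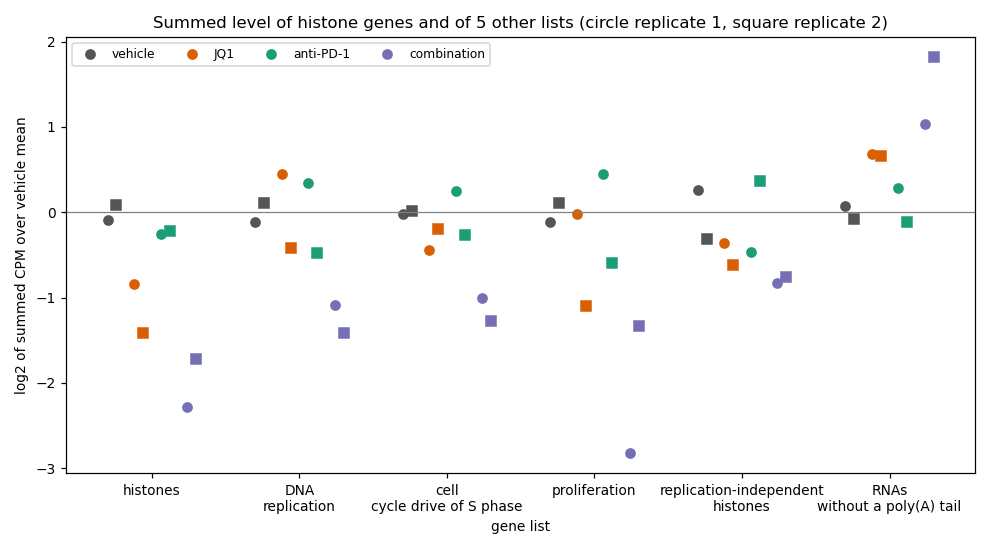
Log2 of the summed CPM over the vehicle mean (y axis) for the histone members and 5 other lists (x axis) in each library; colours are groups, circles replicate 1 and squares replicate 2. Histones in the JQ1 libraries are at -0.84 and -1.42, where the DNA replication list is at 0.44 and -0.42, and the sum of RNAs without a poly(A) tail, most of it Rn7sk, lies at 0.66 to 1.82 in the libraries given JQ1.

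Histone genes outside the clusters are expressed throughout the cell cycle and carry poly(A) tails, and their median over both backgrounds was -0.58. Where 4.05% of all tested genes fell, 3 of the 10 tested did. These were H2afx (-1.40, adjusted p = 0.0228), which also gives a stem-loop form, H2afy (-0.70, adjusted p = 0.0475) and H3f3a (-0.73, adjusted p = 0.0429). H2afj (-0.91, adjusted p = 0.209), H1f0 (-0.19) and H3f3b (-0.45) did not pass. Of 5 tested genes for other RNAs without a poly(A) tail, 1 rose and none fell. The share of all tested genes that rose is not given here. Rn7sk, the scaffold of the complex that holds P-TEFb inactive, rose (1.10, adjusted p = 0.0259), from 680 and 658 CPM with vehicle and 871 and 629 with anti-PD-1 to 1096 and 1175 with JQ1 and 1449 and 2616.8 with the combination. Rpph1 (0.66), Rmrp (0.53), Rn7s2 (1.16) and Rn7s1 (1.18) did not pass. Brd2, a BET gene, fell (-0.82, adjusted p = 0.0291), while Brd3 (0.32, adjusted p = 0.302) did not pass.

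The 5 genes outside the family whose log2 level tracked the log2 histone sum most closely over the 8 libraries were Ndufs1 (Pearson r = 0.989), Ncbp1 (0.989), Cnpy3 (0.986), Nutf2 (0.986) and Eif5al3-ps (0.978). They were picked from all tested genes for this likeness, so r is a description. Ncbp1, a subunit of the nuclear cap-binding complex, was at 73.7 and 89.8 CPM with vehicle, 57.6 and 47.4 with JQ1, 72.4 and 76.0 with anti-PD-1, and 32.4 and 35.9 with the combination. Its spread over the groups was narrower than that of the histone sum.

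Cell type markers were read in the same libraries. Lung epithelial markers summed to between 4882 and 9063 CPM in the 8 libraries, with Sftpb, Sftpc and Nkx2-1 present in all, as the tissue label of lung tumour requires. Of 7 such markers, Nkx2-1 fell over both backgrounds (-1.08) and Epcam (0.98) and Cdh1 (0.84) rose. Among all tested genes 4.05% fell over both backgrounds, and the share that rose is not given here. Of 5 fibroblast markers, Col1a1 fell (-1.45) and Pdgfra rose (1.18). The summed fibroblast level was 1006 to 1245 CPM with vehicle, 590 to 741 with JQ1, 963 to 1600.0 with anti-PD-1 and 402 to 421 with the combination. Col1a1 made up most of that sum. The other 4 fibroblast markers together had 158 and 186 CPM with vehicle, 182 and 130.0 with JQ1, 345 and 199 with anti-PD-1, and 152 and 166 with the combination, so that libraries with and without JQ1 overlapped. Among them Dcn (1.03, adjusted p = 0.0724) did not pass. Of 4 endothelial markers, Pecam1 (1.20) and Cldn5 (1.70) rose, and the sum was 36.0 to 53.5 CPM with vehicle, 64.0 to 96.5 with JQ1, 57.1 to 68.1 with anti-PD-1 and 89.9 to 95.5 with the combination. Airway markers, 3 in number, summed to 8.48 to 29.5, 167 to 432, 44.0 to 107 and 263 to 546 CPM in the same order, with Scgb1a1, the club cell secretoglobin, called higher (2.92). Of 3 neutrophil markers S100a8 was called higher (3.46), at a sum under 8.6 CPM in every library, and none of 5 macrophage or 5 red cell markers passed. The 4 T cell markers, at sums under 2 CPM, and the 3 B cell markers, at sums under 1 CPM, had too few reads to be tested. The part of these cells in the histone result was not tested.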

How the data were processed

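RNA of 8 tumour nodule libraries, 2 per treatment group, was measured by probe-capture sequencing. The authors deposited raw counts per gene, and the submitters' processing notes name bcl2fastq, STAR, featureCounts, DESeq2 and the build mm10 (GRCm38). Versions, gene annotation, strand setting and treatment of multiply mapped reads are stated by no source used here. The deposited normalised table was not used. From the counts, genes were filtered with filterByExpr by group, scaled with TMM factors and tested in 1 edgeR 4.0.16 quasi-likelihood fit (R 4.3.3) of all 8 libraries with 4 residual degrees of freedom. The 8 contrasts were each adjusted over 14085 genes, with calls at 0.05. Sums over types and clusters have no test. Tested on simulated data with 200 genes changed 8-fold among 13710, the fit recovered 100% of them, and 5.66% of its calls were false. The simulation covered JQ1 over both backgrounds only. It changed only genes above a minimum level and gave all genes the same spread. Recovery of smaller changes, of genes with few reads or with 2 libraries a side was not tested. Totals of 2719816 to 15224108 reads limit the precision. Intervals cover counting error only, since they pool the reads of each group and leave out the spread between libraries. The reads carry no molecular identifiers, so repeat reads of the same molecule were not told apart. Alternatives were other scaling, filters and tools (DESeq2 1.42.0, limma 3.58.1), the compared libraries alone, ribosomal RNA genes removed or as a covariate, and leaving out each library. Stem-loops and unique 50-base stretches came from GENCODE M21 transcripts, promoters from RefSeq.

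Members and lists were chosen with earlier results of these data known. The 28 members named with values are the 3 with the highest mean CPM in each type, all tested Hist2, Hist3 and Hist4 genes, and the 5 lowest and 5 highest log2 fold changes for JQ1 over both backgrounds. Of each list the 4 genes with the highest mean CPM are named, except 1 gene that is not reported here. Hist1h2bl, Hist1h2ai, Hist1h2bn, Hist1h2bg and Hist1h2bm, named for their promoters or start sites, and Slbp, Npat, the called list genes and Hist1h4a were chosen after their values were seen.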

Additional observations from a re-analysis of the deposited data

Results flagged for a closer look

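The 3 Hist3 genes, too few in reads to be tested, summed to 0.61 and 2.75 CPM with vehicle, 2.09 and 2.0 with JQ1, 0.63 and 1.69 with anti-PD-1, and 0.84 and 0.82 with the combination. The mean with JQ1 was 0.367 CPM above vehicle, whereas the mean with the combination was -0.326 CPM relative to anti-PD-1. The opposite sign of the 2 differences drew attention, and the difference between them was not tested. The 3 genes held 133 reads in all 8 libraries together.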

How the results depend on the processing

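With the ribosomal share as a covariate, the members called went to 0 for the combination against vehicle, 0 for the combination against anti-PD-1 and 0 for JQ1 over both backgrounds. The share was higher in every library with JQ1 than in every library without, so that fit cannot separate it from JQ1. Without a filter on low counts 16 members were called for JQ1 against vehicle, 26 for the combination against JQ1, 21 for anti-PD-1 over both backgrounds and 6 for the interaction. DESeq2 called 9, 18 and 11 members in the first 3 of these. The share of all genes called under each alternative is not given here, so a more liberal setting cannot be told from calls particular to the members. For the combination against anti-PD-1, limma voom called 21 and the compared libraries alone 8. Leaving out 1 library at a time gave 2 to 39 calls for the combination against vehicle, 0 to 36 against anti-PD-1, 0 to 1 against JQ1 and 6 to 41 for JQ1 over both backgrounds. These counts hold calls in either direction. Against JQ1, without combination replicate 1, Hist1h1c was higher, with a log2 fold change of 2.11 that rests on 1 combination library. With 1 library left out, the ratio of the histone sum to vehicle ran from 0.798 to 0.903 with anti-PD-1. It ran from 0.372 to 0.556 with JQ1 and 0.201 to 0.303 with the combination. No named member changed direction among those called. Of the 57 members, 55 had negative values for JQ1 over both backgrounds as reported and between 53 and 56 did so under every alternative that tested all 57, and 46 of 48 did with a mean count of at least 50. Of 16 named members called, 14 lost the call without vehicle replicate 2. Depth limits the combination most, where 33 and 15 of 57 tested members had fewer than 10 reads. No paired analysis was possible because the labels give no replicate numbers.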
